A study of Mus musculus with 4 samples.

Results

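The genes described here are 36 genes of mitosis and the kinetochore, measured in RNA that was precipitated with an antibody against Cpeb4 from fetal liver erythroblasts of the mouse. They were chosen by gene symbol from a list of checkpoint, kinetochore, spindle, cytokinesis and mitotic kinase genes. All 36 listed genes were found, among 23740 named genes in all, and all 36 were high enough to be tested. Of these, 35 were named by the annotation table of the array. Ccnb1 was named by matching its probe set number, an Entrez gene number, to RefSeq.

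The tested group was the Cpeb4 immunoprecipitate (IP, 2 biological replicates), set against 1 precipitate obtained with a control rabbit IgG and 1 array of unprecipitated input RNA. All 4 samples came from E14.5 fetal liver cells sorted with magnetic beads for Ter119, an antigen on maturing red cell precursors. No genotype, strain or treatment of the animals was given in the sources used here, nor whether livers were pooled or whether the controls came from the same cells as either IP replicate. Values are log2 expression values deposited by the authors, 1 for each gene and array, and a difference, also in log2 units, is that of the mean IP value from the control value.

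Cpeb4 belongs to a family of RNA-binding proteins that recognise cytoplasmic polyadenylation elements (CPE) in mRNA and control its poly(A) tail and translation. In Xenopus oocytes, where this control was worked out, mRNAs of cell cycle regulators such as cyclin B1, and of the spindle proteins Tpx2 and Bub3, carry such elements. In mitosis the kinetochore, built on centromeric chromatin, attaches chromosomes to the spindle. The spindle checkpoint holds back the anaphase-promoting complex (APC/C) until all chromosomes are attached. Erythroblasts divide several times as they mature.

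The mitosis genes had high values on every array. Their median level was 8.18 and 8.11 in IP replicates 1 and 2, 7.72 in IgG and 9.18 in input. As ranks among all named genes of the same array, the medians were percentiles 91.9 and 91.2 in the IP replicates, 93.5 in IgG and 96.2 in input. The 9 erythroid markers found had mean values of 10.63 and 10.67 in the IP replicates, 10.59 in IgG and 11.12 in input. The spread of values was smallest on the IgG array, whose SD over named genes was 1.75, against 2.07 and 2.09 for the IP replicates and 2.16 for input.

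Compared with input, most of these mRNAs were lower in the Cpeb4 IP and none rose. Of the 36 genes, 26 fell by the limma test, where 16.1% of the 14244 tested genes fell and 10.4% rose (adjusted p below 0.05 by Benjamini-Hochberg over all tested genes). In both IP replicates 15 were at least 2-fold lower than input, against a background of 5.18%, and 0 were at least 2-fold higher, against a background of 4.09%. The median difference of the 36 genes was -0.96, where that of all tested genes was -0.0075. The genes ranged from -1.86 for Cdc20 to 0.16 for Cenpe.

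The mitosis genes had higher array values than most genes, so they were also set beside the 5871 tested genes whose mean over the 4 arrays lay within the members' range of 6.06 to 9.78, a set that includes the members and was chosen after the data were seen. Of those, 26.5% fell against input and 8.26% were at least 2-fold lower, with a median difference of -0.11. These 5871 genes, called genes of like level below, share the members' range but were not matched to their levels within it. Ranks do not depend on the scale of an array. In both IP replicates 30 of the 36 genes ranked lower than in input, and 4 ranked higher. Of the 5871 genes, 44.9% ranked lower and 49.2% ranked higher.

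The difference between the IP replicates was small beside these values. Over the 36 genes it had a median of 0.0443 and a highest value of 0.262, and in 7 genes the 2 IP values were tied (within 1e-09), a result that the summary of probes by RMA can give. The input and IgG groups were single arrays, so their own spread was not measured and was assumed to be that of the IP replicates. A lower value in the IP means a smaller share of the precipitated RNA. Fewer molecules precipitated per cell and fewer cells holding the mRNA cannot be told apart in bulk RNA. The IgG precipitate also lay below input. Its median difference from input over the 36 genes was -1.37, and -0.63 after quantile normalization of the 4 arrays again. A loss common to both precipitates was not tested.

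**Figure D1:**
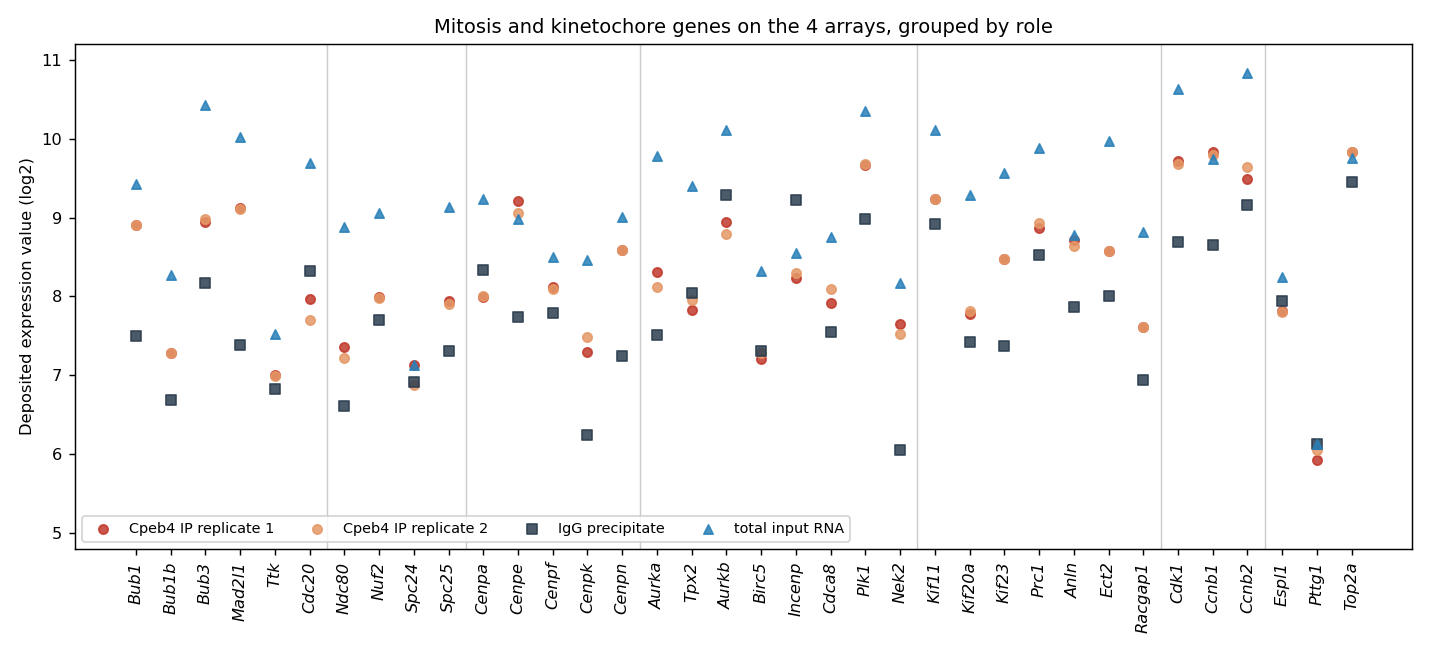
Deposited log2 expression value (vertical axis) of each of the 36 mitosis and kinetochore genes on the 4 arrays, with circles for the Cpeb4 IP replicates, squares for IgG and triangles for input, and grey lines between roles. The IP circles lie below the input triangle for most genes, as in Cdc20 and Bub3, and lie close to it for Cenpe, Ccnb1, Top2a, Anln and Spc24.

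With deposited values the spindle checkpoint genes all fell against input (6 of 6), with a median difference of -0.94. After quantile normalization again Ttk did not pass. Cdc20, the activator of the APC/C that the checkpoint inhibits, had the largest fall of the 36 genes. Its values were 7.97 and 7.70 in the IP replicates and 9.69 in input, a difference of -1.86 ± 0.16 (SE, limma adjusted p = 0.00929). Bub3, which brings the checkpoint kinases to unattached kinetochores, had 8.94 and 8.99 in the IP replicates and 10.42 in input and fell by 1.46 (limma adjusted p = 0.0091). For both genes the IP replicates were far closer to each other than to input.

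Mad2l1, the checkpoint protein that binds Cdc20, had 9.13 and 9.11 in the IP replicates and 10.02 in input, a difference of -0.90 (limma adjusted p = 0.0141). Bub1b, the BubR1 subunit of the checkpoint complex, had 7.28 on both IP arrays and 8.27 in input, a difference of -0.99. The kinases Bub1 and Ttk (Mps1) were closest to input in this group, with differences of -0.52 for each and limma adjusted p = 0.0437 and 0.0428.

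The Ndc80 complex, which links kinetochores to microtubules, was divided: 3 of its 4 subunits fell by 1.08 to 1.59 and Spc24 was near input. Ndc80 had 7.36 and 7.22 in the IP replicates and 8.88 in input, a difference of -1.59 (limma adjusted p = 0.00913). Its partner Nuf2 had 7.996 and 7.98 in the IP replicates and 9.06 in input. Spc25 had 7.94 and 7.90 in the IP replicates and 9.13 in input. These 3 subunits lay below input in both replicates by over 1 on the log2 scale. Spc24, which pairs with Spc25 in the complex, had 7.14 and 6.87 in the IP replicates and 7.14 in input (difference -0.13, limma adjusted p = 0.692).

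Among centromere proteins 2 of 5 fell. Cenpa, the histone H3 variant that marks centromeres, had 7.99 and 8.002 in the IP replicates and 9.24 in input and fell by 1.25. Cenpk, a subunit of the inner kinetochore, had 7.30 and 7.49 in the IP replicates and 8.47 in input and fell by 1.07. Cenpe, a kinesin that moves chromosomes to the spindle equator, had the highest difference from input of the 36 genes, with values of 9.21 and 9.06 in the IP replicates and 8.98 in input. Its difference of 0.16 ± 0.13 did not pass (SE, limma adjusted p = 0.514). Cenpf, a large protein of the outer kinetochore, and Cenpn, which binds Cenpa nucleosomes, differed from input by -0.39 and -0.42 and did not pass.

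Of the Aurora and Polo kinases and their partners, 7 of 8 fell. Aurka, a centrosomal kinase, had 8.31 and 8.12 in the IP replicates and 9.78 in input, a difference of -1.56 (limma adjusted p = 0.00958). Tpx2, its activator on the spindle, had 7.83 and 7.95 in the IP replicates and 9.40 in input, a difference of -1.51 (limma adjusted p = 0.00926). Both genes lay below input by over 1.4 in each replicate.

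The chromosomal passenger complex holds Aurkb, Birc5 (survivin), Cdca8 (borealin) and the scaffold Incenp. Aurkb had 8.94 and 8.79 in the IP replicates and 10.11 in input, and Birc5 had 7.20 and 7.28 in the IP replicates and 8.33 in input. Both fell, by 1.25 and 1.08. Cdca8 fell by 0.76, while Incenp, with 8.23 and 8.30 in the IP replicates and 8.55 in input, did not pass (difference -0.29, limma adjusted p = 0.177). Plk1, the Polo kinase of mitotic entry, and Nek2, a kinase of centrosome separation, fell by 0.68 and 0.58. After quantile normalization again Cdca8 and Nek2 did not pass against input.

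Spindle motor and cytokinesis genes fell in 6 of 7 cases, with a median difference of -1.09. Kif20a, a kinesin of the midzone, had 7.77 and 7.81 in the IP replicates and 9.29 in input, a difference of -1.496 (limma adjusted p = 0.00892). Ect2, the exchange factor that activates RhoA at the division plane, had 8.57 on both IP arrays and 9.97 in input, a difference of -1.39. Its partners of the centralspindlin complex, Racgap1 and Kif23, fell by 1.20 and 1.09.

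Kif11, the motor that separates spindle poles, and Prc1, which bundles midzone microtubules, fell by 0.87 and 0.98. Anln (anillin), a scaffold of the contractile ring, was the exception, with 8.72 and 8.64 in the IP replicates and 8.77 in input (difference -0.10, limma adjusted p = 0.699).

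The cyclin B genes, whose products activate Cdk1, gave unlike values. Ccnb1 had 9.83 and 9.79 in the IP replicates and 9.74 in input, a difference of 0.07 ± 0.12 that did not pass (SE, limma adjusted p = 0.816). Ccnb2 had 9.49 and 9.64 in the IP replicates and 10.83 in input, a difference of -1.27 (limma adjusted p = 0.0105). Cdk1 itself fell by 0.93, with 9.72 and 9.68 in the IP replicates and 10.63 in input. The difference between the 2 cyclins was not itself tested.

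None of the 3 genes of chromatid separation and decatenation passed against input with deposited values. Top2a, the topoisomerase that untangles sister chromatids, had 9.83 on both IP arrays and 9.75 in input (difference 0.08, limma adjusted p = 0.743). Pttg1 (securin) and Espl1 (separase), the inhibitor and the protease that cuts cohesin, differed by -0.13 and -0.43. In all, 10 genes did not pass against input with deposited values: Spc24, Cenpe, Cenpf, Cenpn, Incenp, Anln, Ccnb1, Espl1, Pttg1 and Top2a. With each array centred on its median over tested genes, Cenpf, Cenpn and Espl1 fell.

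The mRNAs whose CPE control is known from Xenopus oocytes were not alike here. Bub3 and Tpx2 were among the lowest against input (-1.46 and -1.51), as was Aurka, a kinase known in Xenopus to phosphorylate Cpeb1, at -1.56, while Ccnb1 was at 0.07. The IgG array also lay below input for Bub3 (-2.26), Aurka (-2.27), Tpx2 (-1.35) and Ccnb1 (-1.09). Against IgG, with deposited values, Ccnb1 (1.16), Bub3 (0.80) and Aurka (0.71) rose, and Tpx2 (-0.16) did not pass. After quantile normalization again Ccnb1 still rose against IgG, Bub3 and Aurka did not pass, and Tpx2 fell. The Cpeb4 mRNA itself, for comparison, had 10.90 and 10.93 in the IP replicates and 10.39 in input, and rose by 0.52 (limma adjusted p = 0.0436). For Cpeb4 the IgG array gave 10.42, a difference of 0.50 with deposited values (limma adjusted p = 0.0259). That difference was 0.34 after quantile normalization again.

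**Figure D2:**
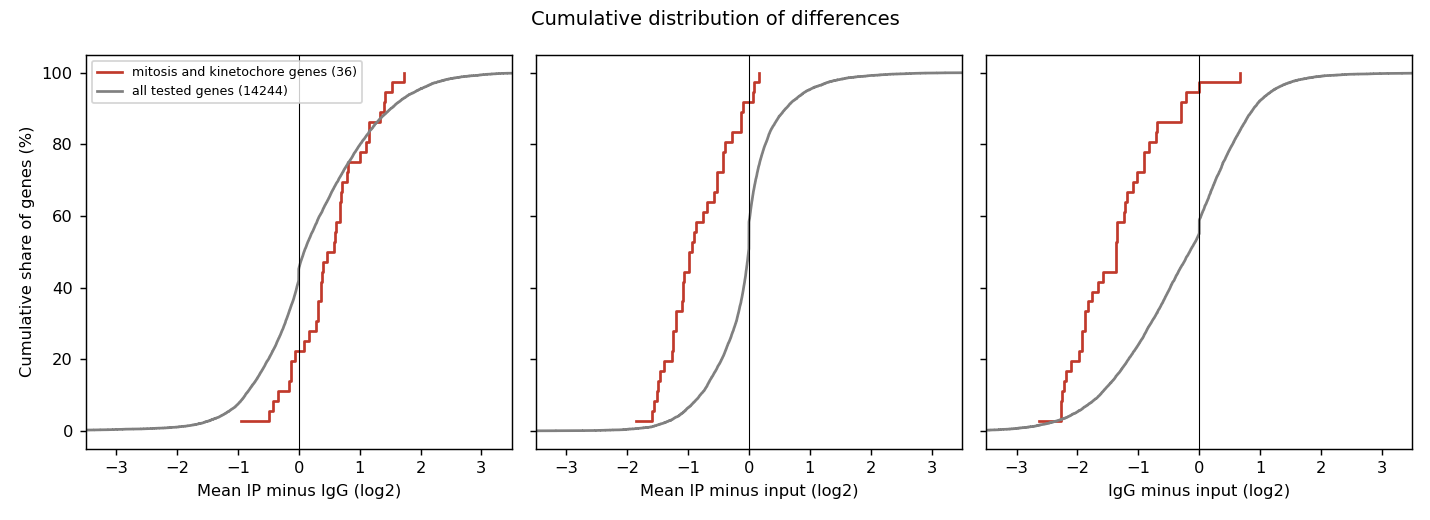
Cumulative share of genes (vertical axis, percent) against the log2 difference of mean IP minus IgG, mean IP minus input and IgG minus input (left to right), for the 36 mitosis and kinetochore genes (red) and the 14244 tested genes (grey). The red curve lies left of the grey in the middle and right panels, where the members' medians are -0.96 and -1.37. A few tested genes lie beyond the axes.

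Other genes of the same processes were taken from 5 further lists, and in none of them did a gene rise against input. Of all tested genes 10.4% rose and 16.1% fell, and of genes of like level 13.5% rose and 26.5% fell. Some genes of these lists lie outside the range that defines like level. Of 33 further kinetochore and centromere genes found, 18 fell, with a median of -0.58. The lowest were Cenpq (-2.05) and Cenpp (-1.79), both inner kinetochore subunits, and both fell. The highest were Knl1, the scaffold that holds the checkpoint proteins (0.11), and Haspin, a histone kinase (0.01), neither past the test.

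Of 30 further motors and spindle proteins 29 were high enough to be tested and 19 fell, and the median of the 30 was -0.60. Kif4 fell by 1.54 and Kif22, the chromokinesin known as Xkid in Xenopus, fell by 1.39, while the highest that were tested, Numa1 (0.11) and Kif20b (0.08), did not pass. Of 18 mitotic entry genes 10 fell, with Cdc25c, a phosphatase that activates Cdk1, at -1.71 and the kinase Melk at -1.56, and with Lin54 (0.18) and Arpp19 (0.07) not past the test. Neither of these lists held a gene at least 2-fold above input.

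Of 18 genes of the APC/C and its regulators 8 fell, with a median of -0.33. Anapc2 and Fzr1, the APC/C activator of late mitosis and G1, fell by 1.17 and 0.90, and Cdc27 (0.27) and Anapc5 (0.20) did not pass. Of 21 cohesin and condensin genes 5 fell, with a median of -0.29. The share that fell lay between those of all tested genes and of genes of like level. Ncaph, a condensin subunit, fell by 1.81 and Cdca5 (sororin) fell by 1.502, while the cohesin regulators Pds5b (0.36) and Wapl (0.33) did not pass.

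Markers of other cells moved the opposite way in the same comparison. Against input 6 of 7 neutrophil markers rose, 5 of 6 megakaryocyte markers, 6 of 7 macrophage markers and 3 of 5 hepatocyte markers. Of all tested genes 10.4% rose against input. The mean level of the neutrophil list was 7.98 and 7.99 in the IP replicates, 6.79 in IgG and 6.02 in input. That of the megakaryocyte list was 8.73 and 8.85 in the IP replicates, 7.78 in IgG and 6.91 in input.

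The macrophage list had 5.44 and 5.58 in the IP replicates, 5.01 in IgG and 4.41 in input, and the hepatocyte list 5.65 and 5.74 in the IP replicates, 4.77 in IgG and 4.16 in input. Array values have no true zero, and the lowest of these markers on the input array was Vcam1 at 3.43. The macrophage markers Vcam1, Adgre1 (3.70) and Mertk (3.79) lay below the level needed for testing (3.857) on the input array. They were tested because their mean over the 4 arrays reached that level, so their rise is not independent of the filter. Of 9 erythroid markers 3 fell against input. Among those that fell were the transcription factors Klf1 (-1.71) and Gata1 (-1.40), the lowest of that list. Against IgG 4 of 7 neutrophil, 4 of 6 megakaryocyte and 3 of 5 hepatocyte markers rose, and of 7 macrophage markers 3 rose and 1 fell, where 36.6% of tested genes rose and 21.1% fell. The part of these markers in the differences of mitosis genes was not tested.

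The promoters of the mitosis genes share short elements that the choice of genes did not use. Promoter here means the 250 bases before and 50 bases after a RefSeq transcript start in build GRCm38.p6, and 31 of the 36 genes had at least 1 in the table used. The cell cycle homology region (CHR), an element of genes expressed late in the cell cycle, was searched as TTTGAA or TTCGAA, and the CCAAT box as CCAAT, each on both strands. A match of one can overlap a match of the other. Of the 31 genes 23 (74.2%) had a CHR match, against 21.7% of all 27025 genes in the table, and 25 (80.6%) had CCAAT, against 41.1%. Both were present in 21 genes (67.7%, against 8.61%).

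A CHR match was found in 18 of 23 genes that fell against input and in 5 of 8 that did not, so matches were held by both kinds of gene. The 100 bases upstream of the start are shown for the 2 genes of the checkpoint with the largest falls and for the 3 genes above input, read on the gene's strand with CHR and CCAAT matches in capitals. The windows are chr4:118437344-118437443 (minus strand) for Cdc20, chr7:131560270-131560369 (plus) for Bub3, chr13:100786487-100786586 (minus) for Ccnb1, chr11:99024190-99024289 (minus) for Top2a and chr3:135212463-135212562 (plus) for Cenpe.
Cdc20: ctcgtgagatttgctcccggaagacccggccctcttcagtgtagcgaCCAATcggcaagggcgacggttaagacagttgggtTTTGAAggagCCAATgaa
Bub3: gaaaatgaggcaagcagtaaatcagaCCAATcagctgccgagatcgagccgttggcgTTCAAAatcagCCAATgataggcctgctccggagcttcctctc
Ccnb1: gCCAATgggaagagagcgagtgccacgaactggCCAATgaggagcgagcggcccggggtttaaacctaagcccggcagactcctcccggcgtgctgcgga
Top2a: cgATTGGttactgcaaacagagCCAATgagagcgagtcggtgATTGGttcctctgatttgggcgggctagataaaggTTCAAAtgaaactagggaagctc
Cenpe: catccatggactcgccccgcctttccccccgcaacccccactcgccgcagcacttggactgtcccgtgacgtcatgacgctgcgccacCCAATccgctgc
Cdc20, Bub3 and Top2a have a CHR match in these windows, with Top2a near input and the other 2 far below it. Bub3 has another transcript start, from which this CHR match lies at -167, outside a window of 100 bases. Ccnb1 and Cenpe have none in these letters and have CCAAT matches.

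Compared with IgG, the members were spread to both sides, and the direction of the group depended on how the arrays were scaled. With the deposited values 18 of 36 genes rose and 1 fell by the limma test, where 36.6% of tested genes rose and 21.1% fell. Of the 5871 genes of like level 62.3% rose and 6.63% fell, so the members' share that rose, 50%, was above that of all tested genes and below that of genes of like level. In both IP replicates 8 were at least 2-fold higher than IgG, against a background of 18.8% (35.1% of the genes of like level), and 0 at least 2-fold lower, against 6.17%. The median difference of the 36 genes was 0.52, where that of all tested genes was 0.09 and that of the 5871 genes of like level 0.71.

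After quantile normalization of the 4 arrays again the members' median against IgG was -0.12, where that of all tested genes was 0.01. By the limma test 9 genes then rose and 12 fell, where 31.4% of tested genes rose and 31.1% fell. With each array centred on its median over tested genes, the members' median was 0.25, where that of all tested genes was -0.18. In that setting 18 genes rose and 8 fell, where 32.3% of tested genes rose and 39.4% fell. By rank, 22 of the 36 genes stood lower in both IP replicates than in IgG and 12 stood higher, while 44.7% of the genes of like level stood lower and 51.5% higher. Against input, where the arrays had more similar spreads, the medians under the same scalings were -0.85 and -0.91. The genes that fell numbered 23 and 29, where 11.4% and 22.1% of tested genes fell.

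The 9 genes that rose against IgG under all 3 scalings were Bub1, Mad2l1, Cenpe, Cenpk, Cenpn, Nek2, Kif23, Cdk1 and Ccnb1. Mad2l1 had 9.13 and 9.11 in the IP replicates and 7.39 in IgG, the largest difference of the 36 genes at 1.73 (3.31-fold, limma adjusted p = 0.00169). Nek2 had 7.65 and 7.53 in the IP replicates and 6.06 in IgG (2.89-fold, limma adjusted p = 0.00217). Bub1 had 8.91 on both IP arrays and 7.501 in IgG (2.66-fold). In these genes both IP replicates lay well above the single IgG array.

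Cenpe, at 9.21 and 9.06 in the IP replicates and 7.74 in IgG, was 2.64-fold higher, and Cenpn, at 8.59 on both IP arrays and 7.25 in IgG, 2.53-fold. Ccnb1 had 9.83 and 9.79 in the IP replicates and 8.65 in IgG (2.23-fold, limma adjusted p = 0.00308). Cenpk and Kif23 were 2.22- and 2.14-fold higher than IgG, and Cdk1 2.00-fold, with 1 of its replicates under the 2-fold mark.

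Incenp was the gene that fell against IgG, and did so under all 3 scalings. It had 8.23 and 8.30 in the IP replicates, 9.22 in IgG and 8.55 in input, a difference from IgG of -0.95 (limma adjusted p = 0.00489). Of the 36 genes it alone had a higher value in IgG than in input. The other members of the passenger complex, Aurkb (-0.42), Birc5 (-0.06) and Cdca8 (0.46), did not pass against IgG with deposited values.

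**Figure D3:**
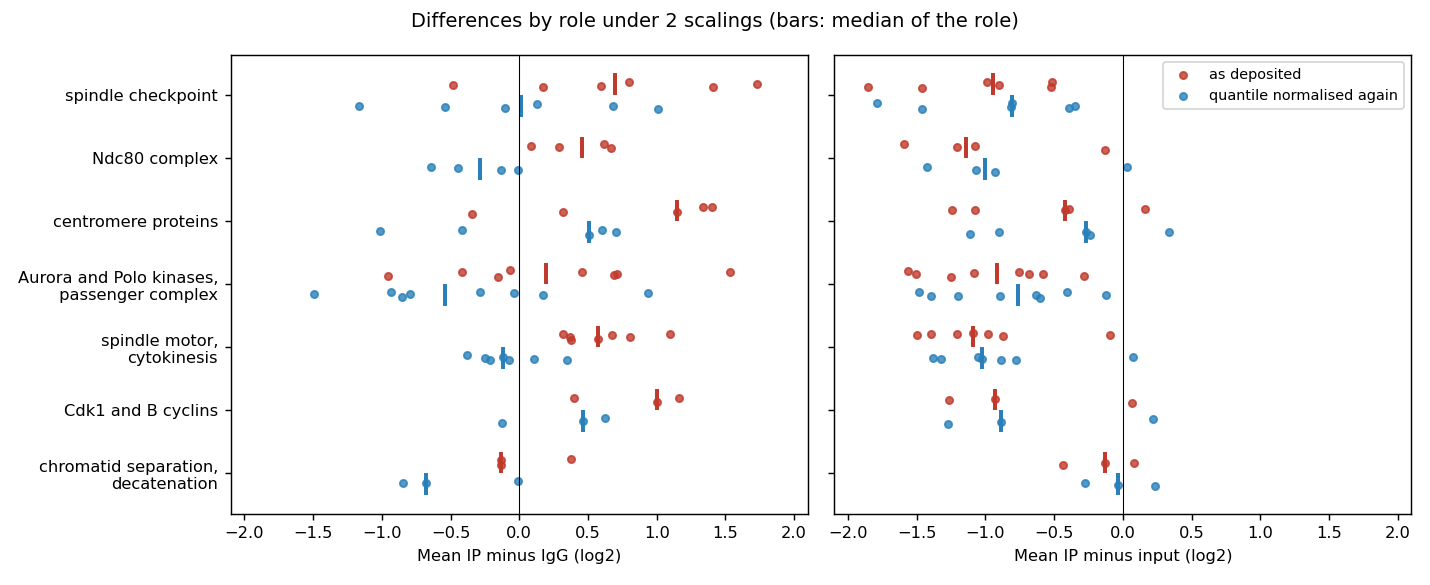
Log2 difference of mean IP from IgG (left) and from input (right) for each of the 36 genes, by role, with deposited values (red) and after quantile normalization of the 4 arrays again (blue), and vertical bars at the median of each role. Against IgG the blue points lie left of the red, with members' medians of -0.12 and 0.52, and against input most points of both colours lie left of zero, with medians of -0.85 and -0.96.

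The counts of the other mitosis lists against IgG stand beside the 36.6% of all tested genes and the 62.3% of genes of like level that rose. That level range is the members' own, and some genes of these lists lie outside it. Of these lists, 19 of 33 kinetochore and centromere genes rose against IgG and 1 fell, with Ska2 (2.94) and Mis12 (2.24) highest and Cenpt (-0.99, fell) and Hjurp (-0.21, not passed) lowest. Of 18 APC/C genes 13 rose and 1 fell, with Anapc13 (3.59) and Anapc16 (2.53) highest and Fzr1 (-0.53, fell) and Anapc2 (-0.26, not passed) lowest. Of 21 cohesin and condensin genes 14 rose and 1 fell, with Esco1 (2.14) and Smc4 (1.46) highest and Mau2 (-0.77, fell) and Cdca5 (-0.01, not passed) lowest.

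Of 18 mitotic entry genes 10 rose and 2 fell. Wee1, the kinase that inhibits Cdk1, and its counterpart Cdc25a rose by 2.41 and 1.45, while Cks2, a small partner of Cdk1, fell by 1.83 and Cdc25c fell by 0.94. Of 29 tested motors and spindle proteins 16 rose and 1 fell, with Haus1 (2.67) and Haus2 (1.89), subunits of augmin, highest and Kifc1 (-1.04, fell) and Kif18b (-0.29, not passed) lowest. After quantile normalization again the medians of these 5 lists against IgG were 0.16, 0.31, 0.24, -0.10 and -0.21, in the order given, in place of 0.63, 0.80, 0.76, 0.48 and 0.50. The direction of the mitotic entry and the spindle lists thus turned with the scaling.

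Between IgG and input, with a single array for either, there was no test and the fold alone was used. Of the 36 genes 26 were at least 2-fold lower in IgG than in input, against a background of 24% of tested genes, and 0 were at least 2-fold higher, against 7.83%. The members' median was -1.37, where that of all tested genes was -0.16. Of the 5871 genes of like level, 43.9% were at least 2-fold lower, with a median of -0.87. Mad2l1 was the lowest, at 7.39 in IgG and 10.02 in input. After quantile normalization again the members' median was -0.63 and 11 genes were at least 2-fold lower, where 13.5% of tested genes were.

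Set against both controls at once, no member stood above both by the test. There were 0 genes of the 36 that rose against both and 0 that were at least 2-fold above both in both replicates, where 7.57% and 2.51% of tested genes were. The 3 genes whose mean IP value was above both controls were Cenpe, Ccnb1 and Top2a, where 27.4% of tested genes were above both. A further 8 had a mean IP value below both, as did 27.8% of tested genes. The remaining 25 lay between IgG and input, as did 40.7% of tested genes. The 2 comparisons share the IP arrays. Of the 36 genes 14 rose against IgG and fell against input, where 6.63% of tested genes did.

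**Figure D4:**
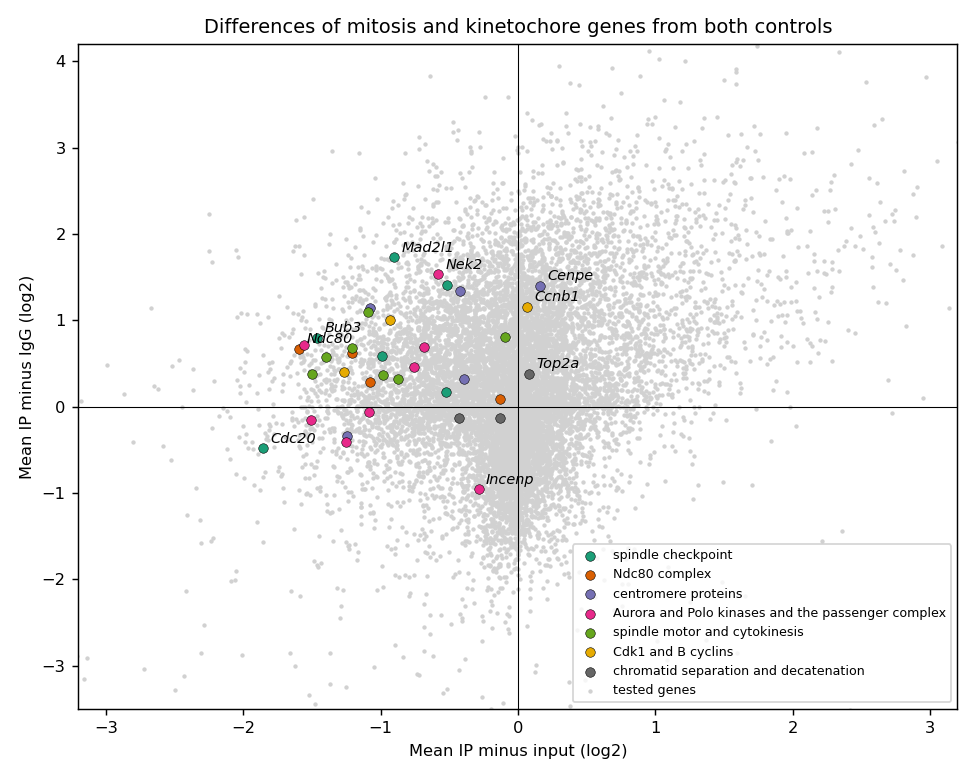
Log2 difference of mean IP from input (horizontal axis) and from IgG (vertical axis) for the 36 mitosis and kinetochore genes, coloured by role, over the tested genes in grey. Most coloured points lie left of the vertical zero line, from -1.86 for Cdc20 to 0.16 for Cenpe, and 28 lie above the horizontal one with deposited values (12 after quantile normalization again). A few tested genes lie beyond the axes, and both axes share the IP arrays.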

How the data were processed

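RNA of 2 Cpeb4 immunoprecipitates, 1 IgG precipitate and 1 input sample was measured on 4 Affymetrix arrays. What the authors deposited is 1 log2 value for each probe set and array. RMA and affy are the tools named, per the submitters' processing notes; versions and probe definitions are not given in the sources used here. Of 25206 probe sets, named by Entrez gene number, 23185 were named in the platform table and 555 more by RefSeq (GRCm38.p6). Symbols were updated through RefSeq.

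Groups were taken from the sample titles. Named genes at or above the 40th percentile of mean level (log2 3.857) were fitted with limma 3.58.1 in R 4.3.3 (lmFit, 3 groups, 1 residual degree of freedom), with Benjamini-Hochberg adjustment over 14244 genes. "Rose" and "fell" mean an adjusted p below 0.05. Ties between the IP arrays shrink the usual eBayes prior (prior SD 0.00617), so prior variance and degrees of freedom (SD 0.110, 3.11) were estimated from genes without ties, and the usual fit is an alternative. The test was tested on simulated data. The outcome is not reported here. Replicates were biological per the titles, but sources of the cells are not given. The p-values rest on the spread between the 2 IP arrays and on the prior from genes without ties. For the 7 members with tied IP values the SE (0.117) comes from that prior alone. The number of arrays limits precision. Alternatives were other filters, scalings, spreads, folds and leaving out an IP replicate.

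Members and lists were chosen with earlier results of these data known. All members could be named, and of each further mitosis list the 2 highest and 2 lowest per control. Promoter sequences are from RefSeq and were searched in Python 3.11.15. The result of 1 erythroid marker is not reported here.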

Additional observations from a re-analysis of the deposited data

How the results depend on the processing

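Against input no alternative changed the direction. The count of genes that fell (26) was between 18 and 30 under other filters, scalings and spreads, and 0 rose in each. The count at least 2-fold lower (15) was 23 at 1.5-fold, 0 at 4-fold, and 15 to 17 without 1 IP replicate. Against IgG the calls depended on scaling. Genes that rose (18) were 9 after quantile normalization again and 18 to 26 otherwise. Genes that fell (1) were 12 after quantile normalization again, 8 with arrays centred on their medians, 3 with a 60th percentile filter, 2 with plain eBayes and 4 with a common IP spread. Genes at least 2-fold higher than IgG (8) were 0 after quantile normalization again, 5 with centred arrays, 17 at 1.5-fold and 0 at 4-fold, and those at least 2-fold lower (0) were 3, 1, 1 and 0. Medians after quantile normalization again were -0.12 against IgG, which reversed, -0.85 against input and -0.63 for IgG against input, and with centred arrays 0.25, -0.91 and -1.06. Without 1 IP replicate the median against IgG was 0.48 to 0.56. For IgG against input, genes at least 2-fold lower (26) were 11 after quantile normalization again and 7 at 4-fold, and 1 was higher after that normalization and at 1.5-fold. The cause of the scaling dependence was not tested. Leaving out an IP replicate leaves no residual degrees of freedom, so it gave values with no test. No paired analysis was possible because each control is 1 array. With 1 array for each control, its own error was not measured, and no detection calls were given.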
